A study of Mus musculus with 3 samples.

Results

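Retinoid X receptor (RXR) sites that met neither thyroid hormone receptor numbered 3509 of the 6953 autosomal RXR peaks in mouse C17.2a cells. The set was defined by peak positions on chromosomes 1 to 19 of mm9, as RXR peaks that shared no base with any peak of thyroid hormone receptor alpha (TRα) and no base with any peak of thyroid hormone receptor beta (TRβ). The share, 50.5%, is therefore fixed by the overlap of the lists and is a description. Of the other 3444 autosomal RXR peaks, 1977 met TRα only, 210 met TRβ only and 1257 met both receptors.

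C17.2 is a neural progenitor cell line. RXR and TRα were mapped in the same derivative, C17.2a, which stably expressed TRα carrying a protein G tag, and TRβ was mapped in C17.2b, which stably expressed TRβ with that tag. For RXR (ChIP-seq), chromatin was recovered by an antibody against all RXR forms (pan-RXR) on protein A beads, whereas the tagged receptors were recovered on IgG beads (chromatin affinity purification, ChAP-seq). Cells of both lines were untreated and spent 24 h without serum before fixation, so no ligand-treated group was compared. All RXR sites come from cells that also carried the introduced TRα, and no RXR library from C17.2b or from unmodified C17.2 cells was analysed here. Each receptor was represented by 1 library, and the intervals given below cover counting error over peaks only. The labelled cell type was not checked against marker genes, since only binding data were used.

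RXR is a nuclear receptor that rarely works alone. It is the common partner of the thyroid hormone, retinoic acid, vitamin D, peroxisome proliferator-activated and liver X receptors, and it also binds DNA as a homodimer or with orphan receptors of the NR4A family. The partner sets which spacing of repeated half-sites the dimer reads and which ligand it answers to. Such an antibody recognises RXR whatever the partner, so the partner at a given RXR peak is not read out by the RXR library itself.

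The RXR library held 16654006 tags, of which 96.3% were unique. The TRα and TRβ libraries held 19786966 and 16556350 unique tags, which were 97.7% and 83.4% of their tags. The unique share was thus lowest in the TRβ library. Peaks had been called in each library without a control library. The smallest peaks held 10 tags in the RXR and TRα lists and 6 in the TRβ list, and the calling limit itself was a p-value of 0.0001. The lists give no tags outside peaks, so an RXR site without a TR peak may still carry TR tags below the calling limit. How many such tags the 3509 sites carried is unknown here.

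RXR sites without a TR peak were weaker than RXR sites that met a receptor. They held between 10 and 166 RXR tags, with a median of 17 (quartiles 13 and 22). RXR peaks that met a TR peak held a median of 31 tags (22 and 44). The order of the medians was 17 tags with neither receptor, 21 with TRβ only, 28 with TRα only and 40 with both. The quartile ranges of the first and the last of these groups, 13 to 22 and 27 to 56 tags, did not overlap, while those of neighbouring groups did.

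The other measures of an RXR peak followed the same order. The score, which is -10 times log10 of the p-value from the peak caller, had a median of 45.4 (quartiles 42.3 and 51.8) without a TR peak. It was 53.1 with TRβ only, 62.0 with TRα only and 90 with both. The fold enrichment, the authors' value, had medians of 6.77, 7.54, 8.09 and 9.73 in the same order. Median widths were 614 bp without a TR peak, 648.5 bp with TRβ only, 789 bp with TRα only and 842 bp with both. The values of single peaks overlapped between all groups, as the whiskers of the box plot show.

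**Figure D1:**
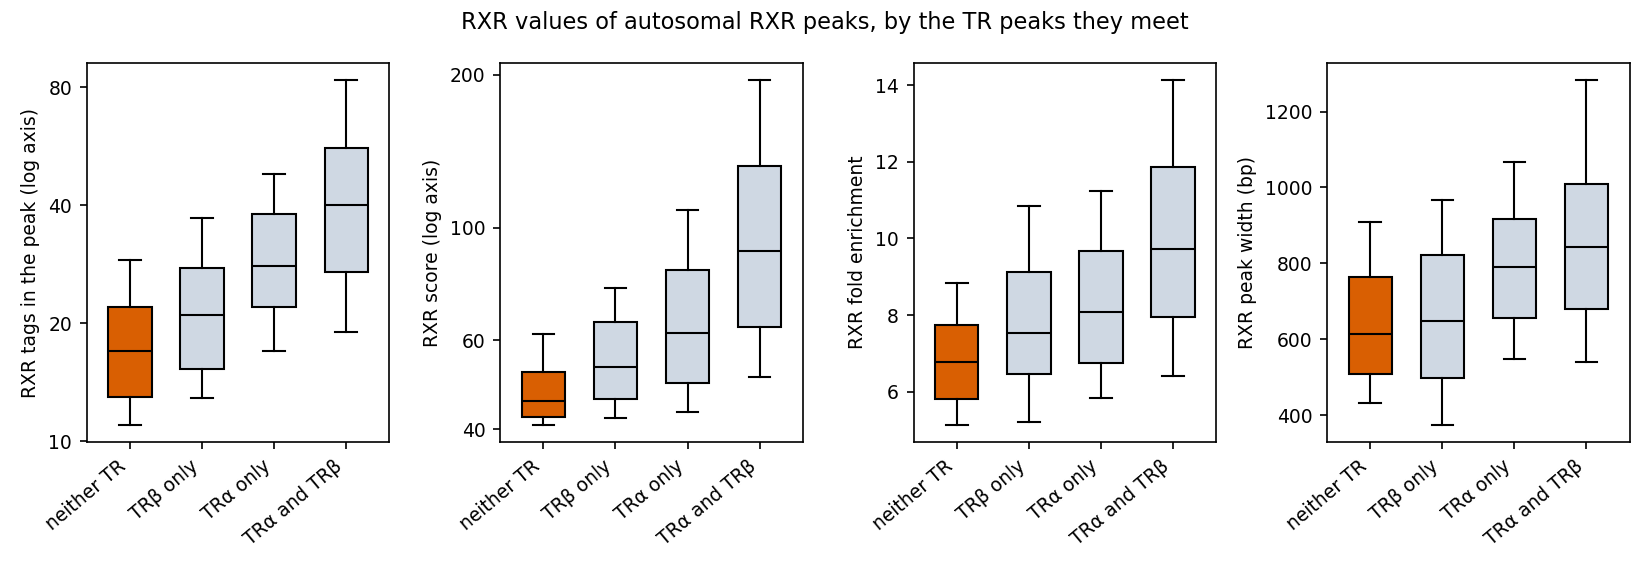
RXR tags, RXR score, RXR fold enrichment and RXR peak width (y axes) of autosomal RXR peaks that met neither TR (orange), TRβ only, TRα only or both (grey). Boxes span the quartiles with the median as a line, and whiskers run from the 10th to the 90th percentile. The median tag count rises from 17 with neither receptor to 40 with both.

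Summed over the set, the 3509 sites carried 66397 RXR tags over 2.30 Mb, which is 33.2% of the tags in autosomal RXR peaks and 0.414% of all unique RXR tags. The 3444 peaks that met a TR peak carried 133366 tags over 2.86 Mb. Mean tag density was 28.9 tags per kb without a TR peak and 46.6 tags per kb with one. The set thus held 50.5% of the autosomal RXR peaks and a smaller part of their tags.

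The share of RXR peaks without a TR peak fell steadily with RXR score. In the decile of lowest scores (40.01 to 41.4) it was 84.5% (588 of 696 peaks, 95% Wilson interval 81.6 to 87.0). In the fifth decile (48.0 to 51.8) it was 62.4% (58.7 to 65.9), and in the eighth (65.8 to 80.2) 20.4% (17.6 to 23.6). In the top decile, with scores of at least 109.03, 35 of 696 peaks lacked a TR peak, or 5.03% (3.64 to 6.91). From the lowest to the highest decile the share differed by 79.5 percentage points (76.0 to 82.3). Membership in the set therefore went with a weak RXR signal, and strength enters every comparison below.

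By tag count the fall was as steep. Of RXR peaks with 10 to 14 tags 88.7% (87.0 to 90.3) had no TR peak, of those with 20 to 24 tags 52.2% (49.3 to 55.0), and of those with 40 to 59 tags 10.8% (8.84 to 13.1). At 100 or more tags 3 of 85 peaks had none. Fold enrichment gave 75.02% (72.3 to 77.6) at folds from 5 to 6 and 5.71% (2.64 to 11.9) at folds of 15 or more. At folds under 5 the share was 71.0% (66.2 to 75.4), below that at 5 to 6, with overlapping intervals.

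**Figure D2:**
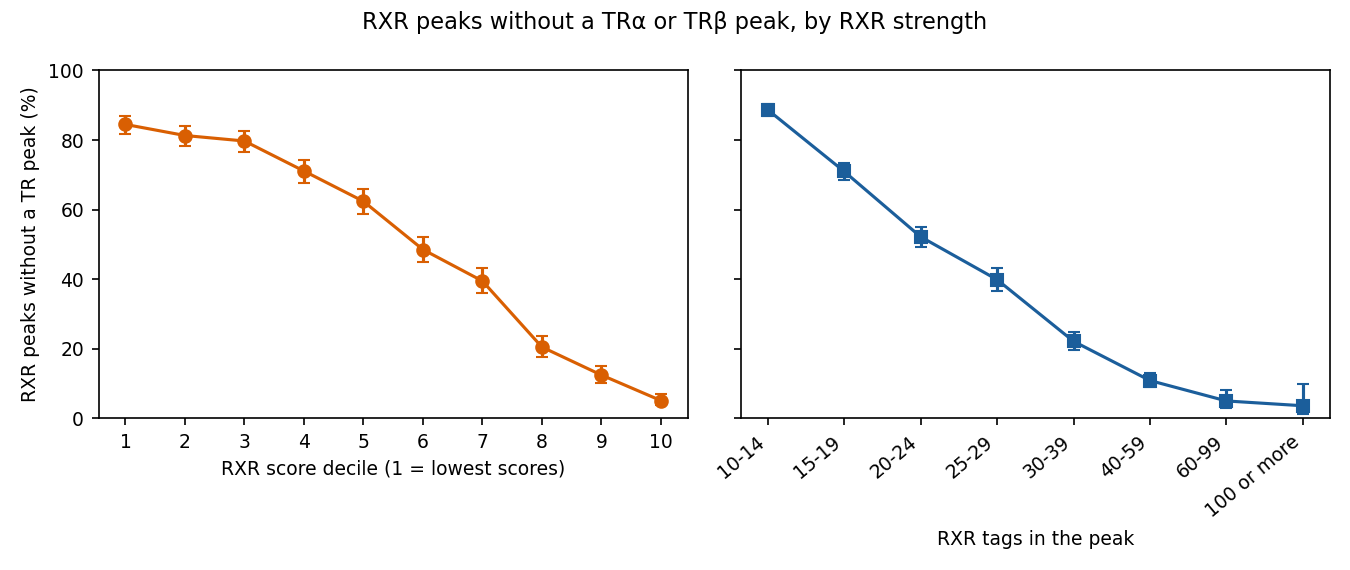
Share of autosomal RXR peaks that met neither TRα nor TRβ (y axis, percent), by RXR score decile (left) and by RXR tags in the peak (right). Points are shares and bars are 95% Wilson intervals. The share falls from 84.5% in the lowest to 5.03% in the highest score decile.

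The TRα peaks that did meet weak RXR peaks were themselves weak. In the lowest RXR decile, the 97 RXR peaks with a TRα peak had a median of 21 TRα tags (quartiles 16 and 28), and 43.3% of those TRα peaks scored under 50, near the calling limit of 40. In the top RXR decile the median was 52 TRα tags (38 and 70), and 1.06% scored under 50. In weak RXR peaks a TRα signal, where called, thus lay closer to the limit at which it would have been lost. The part this plays in the size of the set was not tested.

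At a given number of tags, RXR sites without a TR peak were the more spread out. Among peaks with 20 to 24 tags, the median width was 765 bp for 611 sites without a TR peak and 699 bp for 560 peaks with one. At 30 to 39 tags the widths were 971 and 848 bp, and at 40 to 59 tags 1165.5 and 948 bp. The direction was the same in all 6 tag ranges from 10 to 59 tags.

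As shares, the pattern was seen in every tag range below 30 tags. At 10 to 14 tags, 88.2% (86.4 to 89.8) lacked a TR peak when at most 600 bp wide and 96.0% (90.3 to 98.4) at over 600 to 800 bp. At 15 to 19 tags these shares were 63.7% (59.8 to 67.5) and 76.8% (73.6 to 79.8). Over 800 to 1000 bp, the share at 15 to 19 tags was 82.6% (62.9 to 93.0) of only 23 peaks. Of RXR peaks with 20 to 24 tags, 30.8% (24.6 to 37.8) lacked a TR peak when at most 600 bp wide, 49.0% (45.3 to 52.8) at over 600 to 800 bp, and 70.6% (65.2 to 75.4) at over 800 to 1000 bp. With 25 to 29 tags the share rose from 20% (11.8 to 31.8) at up to 600 bp to 79.6% (66.4 to 88.5) above 1000 bp. With more tags the share did not rise steadily with width and was higher only in the widest peaks. At 30 to 39 tags it was 15% (7.06 to 29.1) at up to 600 bp, 10.98% (7.71 to 15.4) at over 600 to 800 bp, 17.7% (14.6 to 21.4) at over 800 to 1000 bp and 51.1% (43.9 to 58.3) above 1000 bp. At 40 to 59 tags it was 7.32% (3.90 to 13.3), 6.09% (4.02 to 9.13) and 17.5% (13.8 to 22.0) in the last 3 of these widths. Without regard to tags the order was reversed: 78.2% (75.2 to 81.0) of peaks over 400 to 500 bp and 27.0% (23.9 to 30.4) of those over 1000 to 1500 bp lacked a TR peak.

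**Figure D3:**
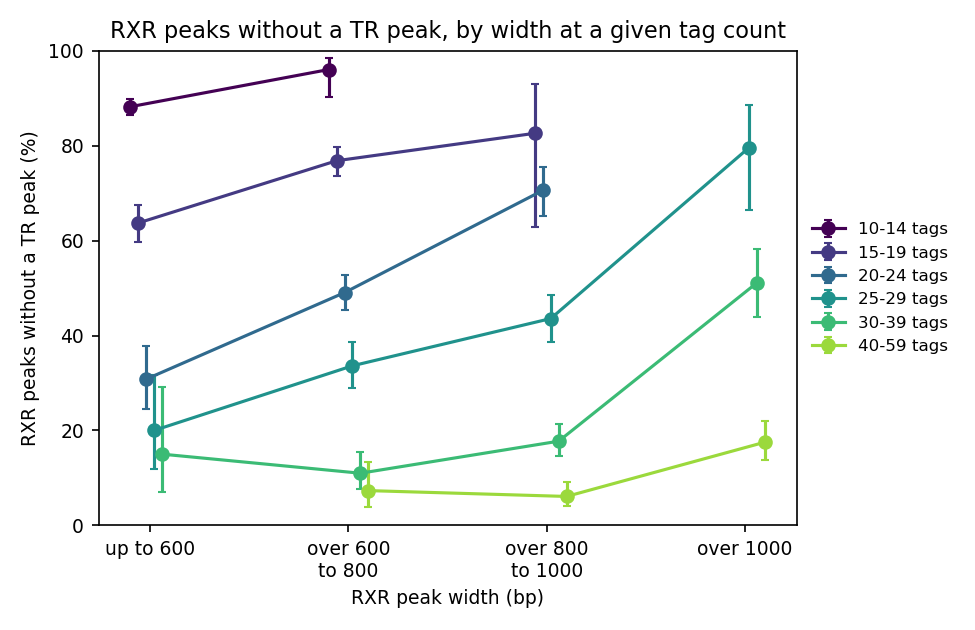
Share of autosomal RXR peaks without a TR peak (y axis, percent) by RXR peak width (x axis, bp), with 1 line for each range of RXR tags. Points are shares with 95% Wilson intervals, and groups under 20 peaks are left out. At 20 to 24 tags the share rises from 30.8% in the narrowest to 70.6% in peaks over 800 to 1000 bp.

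A few sites had the opposite shape. The fragment length modelled for RXR was 174 bp. At most 348 bp wide, 2 fragment lengths, were 66 sites without a TR peak (1.88%, 1.48 to 2.39), against 1.55% of all autosomal RXR peaks. In 64 of them the summit lay within 2% of the width from the centre of the peak, as it did in 42 of the 42 equally narrow peaks with a TR peak. The 66 sites held a median of 11 tags and had a median score of 48.9. The best-scoring ones, chosen after their values were seen, lay on chromosome 14 at 21490809 to 21491134 (22 tags, score 134.01) and on chromosome 12 at 35626842 to 35627166 (18 tags, score 129.34). Of the RXR peaks that met a TR peak, 1.22% (0.903 to 1.64) were as narrow, and the intervals overlapped.

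At the other extreme, 24 sites without a TR peak (0.684%) were wider than 1500 bp, with a median of 54 tags and a median fold of 4.60. Such width was more frequent among RXR peaks with a TR peak, at 101 of 3444 (2.93%, 2.42 to 3.55) with a median fold of 6.70, and held for 1.8% of all autosomal RXR peaks. The 3 sites with the most tags were of this kind, and were chosen after their values were seen. On chromosome 3, a site at 25454069 to 25456640 held 166 tags at a fold of 3.58, and a neighbour at 25416132 to 25417717 held 123 tags at a fold of 3.02. On chromosome 10, a site at 66326208 to 66329045 held 144 tags with a score of only 43.72. High tag counts in these blocks therefore went with low enrichment or a low score. No control library entered the calling, so binding and tags that gather in these blocks without it cannot be told apart.

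Strong sites without either receptor were few. A score of at least 100 was reached by 47 of the 3509 sites (1.34%, 1.01 to 1.78), against 12.3% of all autosomal RXR peaks and 23.4% (22.0 to 24.9) of those that met a TR peak. The 47 sites held a median of 41 tags (quartiles 30 and 48.5) over a median width of 710 bp. The 807 peaks of that score with a TR peak held 51 tags (41 and 67.5) over 860 bp. Median fold was 11.6 in both groups, with quartiles of 10.3 and 13.4 against 9.97 and 13.4. At scores of 200 or more a single site remained among 120 peaks.

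That site, on chromosome 14 at 9438780 to 9439536, held 64 RXR tags at a fold of 15.2 and ranked 79th of all 7194 RXR peaks with a score of 242.91. Its nearest TR peak lay 70.1 kb away, in the TRβ list, with 9 TRβ tags. The nearest TRα peak was 348 kb away and the nearest other RXR peak 323 kb. It was thus a solitary RXR site in these lists.

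The next best sites were on chromosome 17 at 33915891 to 33916993 (86 tags, score 194.47) and on chromosome 1 at 179553205 to 179554250 (71 tags, score 192.91). The former lay 43.2 kb from a TRα peak of 16 tags, and the latter 118 kb from a TRα peak of 40 tags. Chromosome 12 carried the site with the highest fold of the set, 18.4, at 121157540 to 121158347 with 53 tags. The nearest TR peak to it was a TRβ peak of 7 tags at 24.1 kb. On chromosome 4, the site at 129911981 to 129912828 held 54 tags and lay 108 kb from a TRα peak of 15 tags. None of these 4 had a TR peak within 10 kb.

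Also among the 10 best were a second site of chromosome 12 at 70711844 to 70713000 (85 tags, score 183.47) and a pair on chromosome 7. The chromosome 12 site had the lowest fold of the 10, 7.49, and a TRβ peak of 8 tags at 7.24 kb. The chromosome 7 sites, at 85058320 to 85059029 and 137427511 to 137428199, held 45 tags each. Their nearest TR peaks lay at 193 and 177 kb, and both were TRβ peaks, of 6 and 8 tags. Each of these TRβ peaks was near the minimum of that list.

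Another site of chromosome 12, at 18353796 to 18354353, had the fewest tags of the 10, 25, but a fold of 15.3. The last of the 10, on chromosome 11 at 49748068 to 49748999 (54 tags), stood apart from the others in its surroundings. A TRα peak of 33 tags lay 2.95 kb away, a TRβ peak 3.17 kb and another RXR peak 3.13 kb away. Over the 10 sites the distance to the nearest TR peak had a median of 75.3 kb, and 2 of the 10 had a TR peak within 10 kb.

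Few sites owed their place in the set to a narrow miss. Of the 3509, 24 (0.684%, 0.460 to 1.02) had a TR peak within 500 bp, 11 of them TRα, 14 TRβ and 1 both, and 43 (1.23%, 0.911 to 1.65) had one within 1 kb. On the other side of the rule, 2 of the 3444 peaks that met a TR peak shared at most 50 bp with any TR peak. The 24 sites just inside held a median of 21.5 tags with a median score of 45.9, and the 2 just outside a median of 18 tags with a score of 43.9. For each RXR peak that met a TR peak, the longest shared stretch was taken. Its median was 585 bp, and 99.0% of these stretches measured at least 100 bp. Overlaps with TRα and with TRβ were not separated, and the median TRβ peak was only 168 bp wide.

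The 5 shortest gaps lay on chromosomes 17, 6, 18, 14 and 4. On chromosome 17 an RXR peak of 14 tags at 65779179 to 65779606 lay 8 bp from a TRβ peak of 7 tags. On chromosome 6 an RXR peak of 30 tags at 94897452 to 94898470 was 86 bp from a TRβ peak of 7 tags. On chromosome 18 an RXR peak of 21 tags at 61153200 to 61153713 was 88 bp from a TRα peak of 20 tags. All 3 TR peaks scored between 40.9 and 41.8, close to the limit of 40.

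The remaining 2 were an RXR peak of 12 tags on chromosome 14 at 22412420 to 22412882 and one of 36 tags on chromosome 4 at 53230696 to 53231612. Their gaps were 119 bp to a TRβ peak of 6 tags and 143 bp to a TRα peak of 43 tags. The latter TRα peak scored 47.5. None of the 5 RXR sites scored above 57.7.

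RXR sites without a TR peak stood farther from other RXR sites. Another RXR peak lay within 50 kb of 32.1% of them (1125 of 3509, 30.5 to 33.6) and of 45.8% (44.1 to 47.5) of the peaks that met a TR peak, against 38.9% of all autosomal RXR peaks. The difference was -13.7 points (-15.99 to -11.5). Median distances to the next RXR peak were 101 kb (95.5 to 107) without and 58.5 kb (55.0 to 62.7) with a TR peak. Within 10 kb the shares were 7.27% (6.45 to 8.17) and 14.8% (13.6 to 16.0).

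The difference held at matched RXR score in the weaker part of the list. Sites without a TR peak had a neighbour within 50 kb less often at scores of 40 to 45 (29.4% against 42.1%, difference -12.7 points, -18.2 to -7.35), of 45 to 50 (-11.8 points, -17.9 to -5.68) and of 50 to 60 (-13.4 points, -18.8 to -7.97). At scores of 60 to 80 the difference was -6.37 points, with an interval from -12.7 to 0.209. At 80 to 100 it was 3.69 points (-8.36 to 15.6), over 74 sites without a TR peak, and was not detectable at that number. At scores of 100 or more it was -14.7 points (-26.7 to -0.0210) over 47 sites. Scores were matched in steps, and in every step the sites without a TR peak still held fewer tags in the median. The medians were 14 against 21 tags in the lowest step and 41 against 51 in the highest.

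TR peaks elsewhere in the neighbourhood were also sparser, in a comparison that was not repeated at matched RXR score. The TR lists used for it are those that defined the set. A TRα peak lay within 50 kb of 31.5% (30.003 to 33.1) of RXR sites without a TR peak. Of the peaks that met a TR peak, 46.3% (44.6 to 47.9) had a TRα peak within 50 kb besides any that they overlapped. For TRβ peaks these shares were 34.4% (32.8 to 35.99) and 42.0% (40.4 to 43.7). The difference was -14.7 points (-16.99 to -12.5) for TRα, about the size of that for RXR, and -7.62 points (-9.89 to -5.34) for TRβ. Of the sites without a TR peak, 50.8% (49.1 to 52.4) had a TR peak of either kind within 50 kb and 14.3% (13.2 to 15.5) within 10 kb. Shares for either kind together were not counted over RXR peaks that met a TR peak. Whether these values are high or low for an RXR peak is therefore unknown here.

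**Figure D4:**
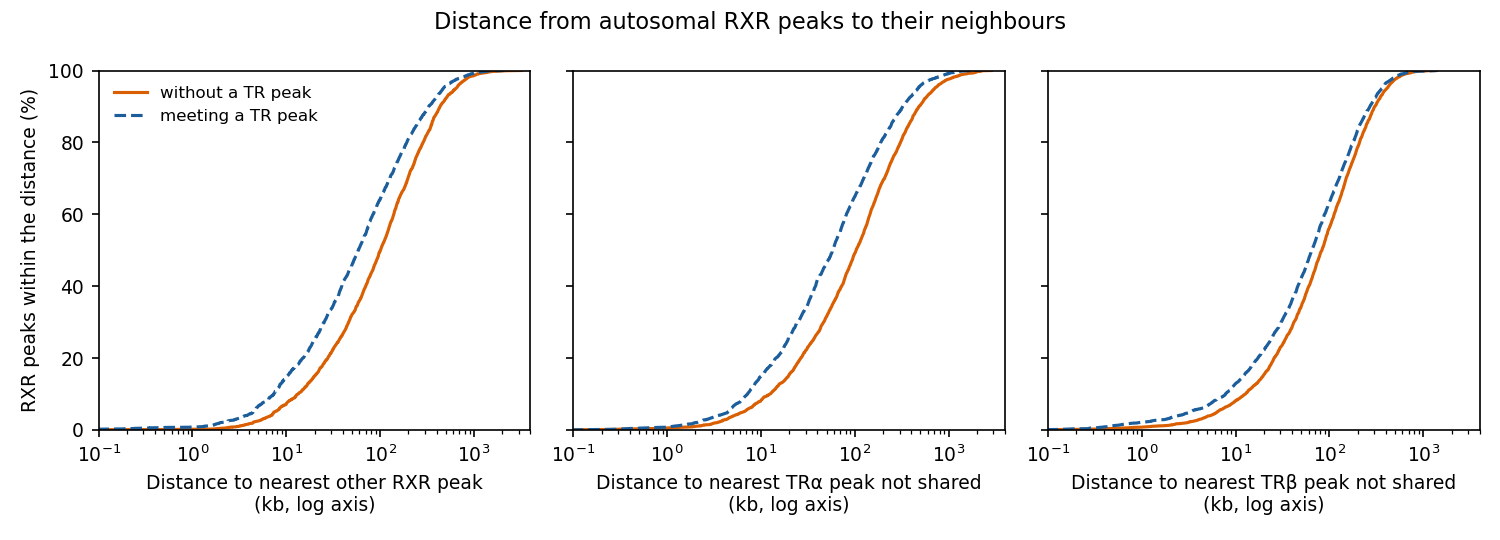
Cumulative share of autosomal RXR peaks (y axis, percent) with a neighbour within the distance on the x axis (kb, log axis), for the nearest other RXR peak, TRα peak and TRβ peak, leaving out overlapping peaks. Solid orange lines are RXR peaks without a TR peak and dashed blue lines those that met one. The orange line lies lower over most of each panel, with 32.1% against 45.8% within 50 kb for other RXR peaks.

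RXR sites of the same kind lay next to each other more often. The nearest RXR peak was itself without a TR peak for 52.5% (1843 of 3509, 50.9 to 54.2) of the sites and for 43.8% (42.2 to 45.5) of RXR peaks that met a TR peak, against 48.2% of all autosomal RXR peaks. The difference was 8.68 points (6.33 to 11.01). It was 9.32 points (5.54 to 13.1) for neighbours within 50 kb and 10.7 points (3.59 to 17.9) within 10 kb. Peaks that are nearest to each other enter these counts from both sides, which the intervals do not allow for. The comparison was not repeated at matched RXR score. Close neighbours of either kind were mostly peaks with a TR peak: within 10 kb, 40.4% (34.6 to 46.5) of neighbours of sites without a TR peak were of their own kind.

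Few of the sites lay in tight groups made only of such sites. Runs were defined, after the spacing had been seen, as at least 3 successive RXR peaks without a TR peak and with gaps of at most 50 kb. They numbered 18, with 57 of the 3509 sites, 15 of them with 3 sites and 3 with 4. Runs of RXR peaks that met a TR peak were not counted, so whether such runs were rarer in this set is unknown here. The most compact run of 4 spanned 40.1 kb on chromosome 5 from 136149761 to 136189852. Its sites held 27, 28, 31 and 20 tags, with scores of 61.2, 114.85, 90.01 and 47.99. The second site had a fold of 15.3, among the 10 highest of the set.

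The other runs of 4 were longer and less even. On chromosome 17, from 29550936 to 29635365, the sites held 42, 15, 19 and 11 tags, and the first had a score of 123.16. A TRα peak at 29633729 to 29634112 lay inside this run, 0.784 kb from its last site, since runs were defined by RXR peaks only. On chromosome 11, from 57725010 to 57812980, the sites held 42, 11, 21 and 18 tags, with 103.79 as the best score. In both, 1 site stood out in tags and the other 3 scored at most 55.6.

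By megabase, most bins that held such sites held 1 or 2 of them. Of 2062 bins of 1 Mb with an autosomal RXR peak, 1745 held at least 1 site without a TR peak, and 1278 held 1 or 2. In 72 bins there were 5 or more, together 387 sites. The same counts were not made for RXR peaks that met a TR peak, so this spread is not shown to be particular to the set. The bin with the most by number, chosen after its values were seen, was chromosome 10 from 66 to 67 Mb, with 9 of its 13 RXR peaks. These 9 sites were broad, 463 to 2838 bp with a median of 1123 bp, and held 17 to 144 tags with folds of 4.36 to 8.16 and scores of 41.7 to 95.13 (median 45.8). The 4 peaks with a TR peak in that bin held 210, 98, 141 and 52 RXR tags, so that the bin was rich in RXR tags of both kinds. It also held 11 TRα and 5 TRβ peaks.

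In 2 bins, 6 of 6 RXR peaks had no TR peak, the largest number among bins of that kind. On chromosome 15 from 48 to 49 Mb they held 10 to 15 tags with scores of 42.2 to 59.5, and the nearest TR peak was 1.47 kb away. On chromosome 16 from 54 to 55 Mb they also held 10 to 15 tags, with scores of 40.95 to 42.1 and no TR peak closer than 31.999 kb. Each bin held 1 TRα peak, and they held 4 and 5 TRβ peaks.

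The share by chromosome spanned a modest range. It ran from 43.2% (37.1 to 49.6) on chromosome 14 to 56.8% (52.2 to 61.2) on chromosome 3. It followed the make-up of each chromosome's RXR list: across the 19 autosomes it rose with the share of RXR peaks that scored under 50, with a Pearson r of 0.892 and a Spearman rho of 0.856. These are descriptions across chromosomes of 1 library, and both shares are counted over the same peaks. Chromosomes 7, 9, 14 and 15 were chosen after their values were seen. Under 40% of RXR peaks scored under 50 on chromosomes 7 and 9 (38.2% and 39.4%), where 44.4% and 46.5% lacked a TR peak. On chromosome 15, 53.3% scored under 50 and 55.1% lacked a TR peak.

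**Figure D5:**
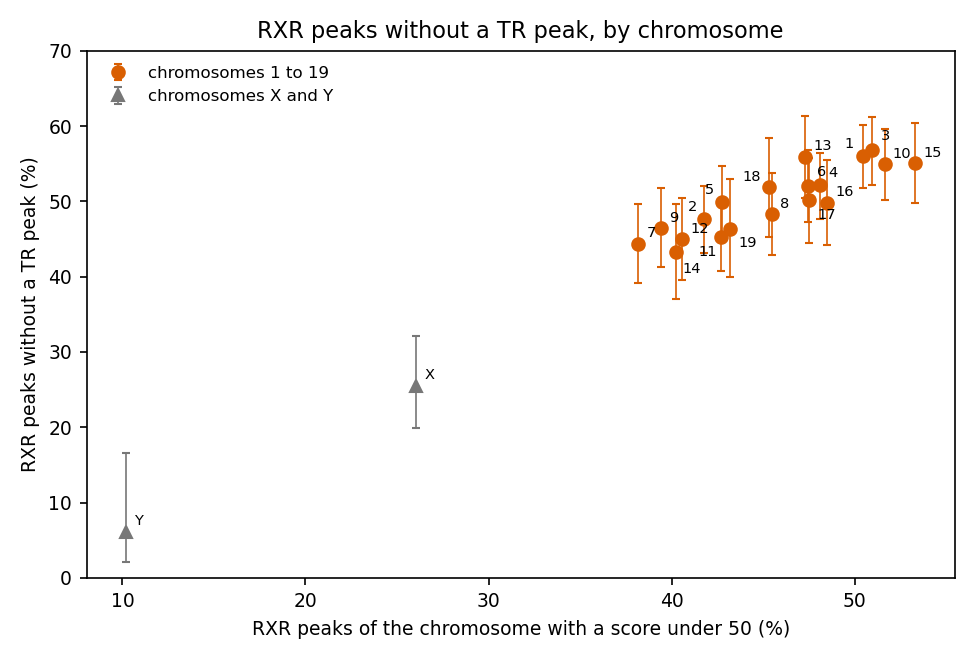
Share of RXR peaks without a TR peak (y axis, percent, with 95% Wilson intervals) against the share of RXR peaks with a score under 50 (x axis, percent), with 1 point per chromosome. Orange circles are chromosomes 1 to 19, between 43.2% and 56.8%, and grey triangles are chromosomes X and Y, which are not part of the set.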

How the data were processed

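Peak lists from 3 libraries were used, with 1 library per receptor: TRα and RXR from C17.2a and TRβ from C17.2b. Per the submitters' processing notes, CASAVA 1.7, Bowtie 0.12.7 and mm9 were used. Per the file headers, MACS was run on each library without a control, at a p-value limit of 0.0001, with fragment lengths of 174 bp for RXR, 139 bp for TRα and 56 bp for TRβ. The MACS version is not stated in them. The deposited count of tags per peak is not normalized, the deposited score is -10 times log10 of the p-value, and the deposited fold is a ratio that the headers do not define. Width and summit offset are in bp, as deposited. Score and fold were used only within the RXR list or to describe single TR peaks.

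RXR starts were raised by 1 bp, since end minus start equalled the length in that list. Peaks met when they shared at least 1 bp. Distances run between peak edges. Shares carry 95% Wilson intervals, differences of shares intervals built from these, and medians order-statistic intervals. No p-value was computed. The overlap and interval steps were tested on simulated data. Python 3.11.15, numpy 2.4.6, pandas 2.3.3, scipy 1.17.1 and matplotlib 3.10.9 were used.

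The set and its comparisons were chosen with earlier results of these data known. The sites named are the 10 with the highest score, the 5 with the shortest gap to a TR peak, and the 1 Mb bins and the chromosome with the most sites per RXR peak (of bins where every RXR peak was such a site, those with the most peaks); others are marked as chosen after their values were seen. Motifs, start sites, base composition, gene lists and sequences under the peaks were not analysed here, because no genome or annotation of mm9 was used.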

Additional observations from a re-analysis of the deposited data

Results flagged for a closer look

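Chromosomes X and Y lay outside the set, and their RXR peaks met a TR peak more often. Without a TR peak were 21.6% of their RXR peaks (52 of 241, 95% Wilson interval 16.9 to 27.2), against 50.5% on the autosomes, a difference of -28.9 points (-33.8 to -23.2). The share was 25.5% (49 of 192, 19.9 to 32.1) on X and 6.12% (3 of 49, 2.10 to 16.5) on Y, in each case below the lowest autosome at 43.2%. The median score was 68.4 on X and 81.6 on Y, and the median tag count was 19 on X and 40 on Y, where the medians of single autosomes were 18 to 26 tags. At scores under 50 the share was 47.3% (34.7 to 60.2) on X and Y together and 77.2% (75.7 to 78.6) on the autosomes, and at scores of 50 or more 13.98% (9.72 to 19.7) and 27.8% (26.4 to 29.3).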

How the results depend on the processing

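For 5 results, 20 alternative values were computed under 8 settings: 13 stayed within the 95% interval of the reported value, 7 left it and 0 changed sign. The share of RXR peaks without a TR peak was 56.7% when overlaps had to be reciprocal and at least 50%, 58.3% with TR lists limited to scores of at least 50, and 27.8% and 5.50% among RXR peaks with scores of at least 50 and 100. With RXR scores of at least 50, the median score of the set was 57.6, 15.6% of it lay within 10 kb of a TR peak, and the difference in RXR neighbours within 50 kb was -10.7 points. Stricter RXR limits remove weak peaks by construction. A stricter overlap rule or shorter TR lists can likewise only raise the share. The median peak width was 168 bp in the TRβ list and 701.5 bp in the RXR list. A TRβ peak of median width thus cannot cover 50% of an RXR peak of median width. What set the size of these shifts was not tested. Alternatives for the decile difference were added after seeing the data. Extending TR peaks by 500 bp or 1 kb, adding X and Y, and leaving out 20 crowded bins of 1 Mb left every result recomputed that way within its interval. Settings for start sites, motifs, composition and gene lists were not run, because mm9 sequence and annotation were not used here. No paired analysis was possible because a single library stood for each receptor.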
